A study of Homo sapiens with 30 samples.

Results

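IGF1R, INSR, IRS1, IRS2, IGFBP2, IGFBP3, IGFBP5, PIK3R1, PHLPP1 and INPP4B are 10 genes that set how strongly a cell receives and passes on insulin-like growth factor (IGF) signals through phosphatidylinositol 3-kinase (PI3K). They were picked by symbol, with no threshold on any value, but with earlier results of these data known. The shares of members called below are therefore descriptions and no test of the set. All 10 have a row among the 23710 genes of the count tables. All 10 are also among the 23616 symbols of the FPKM tables (fragments per kilobase of transcript, scaled to the mapped reads of a sample), where the transcripts of a gene were summed. The 30 RNA samples come from 10 conditions with 3 replicates each. V16D is a castration-resistant line, and MR49F is a line of the same LNCaP prostate cancer family that was obtained from tumours growing in castrated mice under enzalutamide. V16D and MR49F were each cultured in full serum and given vehicle (DMSO) or 10 µM enzalutamide, an antiandrogen drug, for 24 h. MR49F was also cultured for 72 h in charcoal-stripped serum, which is poor in steroids, and then given for 24 h vehicle (DMSO and ethanol), 10 µM enzalutamide, 1 nM dihydrotestosterone (DHT), 500 nM JQ1, enzalutamide with JQ1, or DHT with JQ1. JQ1 blocks the BET bromodomain proteins, which bind acetylated histones and help transcription to elongate. MR49F is otherwise maintained in enzalutamide, and per the labels it was taken off the drug some days before treatment, so its vehicle samples are cells recently withdrawn from it. The labels give 24 h for every treatment, while the study's account of the JQ1 expression experiment can be read as a longer one. Each line is a single derivative, and a difference between the lines is a difference between these derivatives only.

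IGF1R and INSR are receptor tyrosine kinases that bind IGFs and insulin. Once active they phosphorylate the adaptors IRS1 and IRS2, which recruit PI3K through its regulatory subunit, the product of PIK3R1, so that PI3K makes the lipid that activates the kinase AKT. IGFBP2, IGFBP3 and IGFBP5 are secreted proteins that bind IGFs, INPP4B is a lipid phosphatase that removes a product of the pathway, and PHLPP1 is a phosphatase that acts on AKT itself. AKT and its target mTOR feed back on the upstream steps, and in prostate cells androgen signalling and PI3K signalling are known to restrain each other.

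On GRCh37, the build to which the reads were aligned, the members lie at chr15:99191768-99507759 (IGF1R, plus strand), chr19:7112266-7294425 (INSR, minus), chr2:227596028-227664536 (IRS1, minus), chr13:110405042-110438930 (IRS2, minus), chr2:217497551-217529159 (IGFBP2, plus), chr7:45951844-45961473 (IGFBP3, minus), chr2:217536828-217560272 (IGFBP5, minus), chr5:67511568-67597649 (PIK3R1, plus), chr18:60382774-60647666 (PHLPP1, plus) and chr4:142944313-143768585 (INPP4B, minus). IGFBP2 and IGFBP5 are neighbours. Exons of IRS2, IGFBP5 and INPP4B overlap exons annotated on the other strand, so reads of the partner may be among their counts where strand was not used in counting.

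The starts that the results turn on are those of IGF1R, the member with the widest androgen-linked range in MR49F among the receptors and adaptors, and those of PIK3R1, whose transcripts from separate starts moved in opposite directions under JQ1. The sequences below are from RefSeq on GRCh38.p14, run 5′ to 3′ on the gene's strand, and cover 250 bases before to 50 bases after the start. Capitals mark AGAACA or its reverse complement TGTTCT, the 6-base core of the steroid hormone response element. The IGF1R promoter lies at chr15:98648289-98648588 on the plus strand, has a GC content of 79.7% and 55 CpG dinucleotides, and holds no such core. The p85α start of PIK3R1 (chr5:68215506-68215805, plus strand) has a GC content of 80.0% and 42 CpG. The p50α start (chr5:68288269-68288568, plus strand) has 62.3% and 23 CpG. The p55α start (chr5:68290414-68290713, plus strand) has 40.0% and 3 CpG, and holds a core 225 bases before the start.
IGF1R: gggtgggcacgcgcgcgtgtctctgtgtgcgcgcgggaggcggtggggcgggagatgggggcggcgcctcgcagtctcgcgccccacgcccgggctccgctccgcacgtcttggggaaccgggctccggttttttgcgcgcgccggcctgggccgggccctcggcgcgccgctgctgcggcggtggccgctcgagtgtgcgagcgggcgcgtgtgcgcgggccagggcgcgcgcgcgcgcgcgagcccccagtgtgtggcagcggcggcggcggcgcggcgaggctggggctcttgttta
PIK3R1 p85α start: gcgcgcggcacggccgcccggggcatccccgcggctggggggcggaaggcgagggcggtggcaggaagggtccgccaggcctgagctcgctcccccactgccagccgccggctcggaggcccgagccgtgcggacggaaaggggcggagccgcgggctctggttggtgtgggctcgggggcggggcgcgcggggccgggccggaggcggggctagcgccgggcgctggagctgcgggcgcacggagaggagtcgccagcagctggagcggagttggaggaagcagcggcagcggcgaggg
PIK3R1 p50α start: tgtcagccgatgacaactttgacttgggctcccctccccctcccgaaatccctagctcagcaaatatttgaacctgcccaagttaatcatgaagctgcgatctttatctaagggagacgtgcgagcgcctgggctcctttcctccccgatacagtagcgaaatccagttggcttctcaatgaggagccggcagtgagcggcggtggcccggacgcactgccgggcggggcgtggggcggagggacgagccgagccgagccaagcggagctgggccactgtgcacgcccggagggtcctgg
PIK3R1 p55α start: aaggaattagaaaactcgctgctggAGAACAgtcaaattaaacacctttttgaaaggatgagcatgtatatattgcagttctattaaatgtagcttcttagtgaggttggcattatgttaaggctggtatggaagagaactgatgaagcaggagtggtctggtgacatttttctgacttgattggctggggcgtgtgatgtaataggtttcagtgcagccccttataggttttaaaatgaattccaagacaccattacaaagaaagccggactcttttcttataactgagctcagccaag
Across 35116 RefSeq promoters of this length the median number of CpG was 14, and 14.8% held AGAACA on either strand. Among all listed starts of the 10 members the core was found at a pair of IGFBP2 starts and a pair of PIK3R1 starts. The FOXO motif TGTTTAC, searched on both strands, was in 3.42% of all promoters and in none of the members'. The letters alone say nothing about binding, and the enhancers of these genes were not searched.

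The full-serum samples hold 13170504 to 21154962 reads on genes each, and the stripped-serum samples 982130 to 1813262, which is 5.13 to 7.66% of their counted reads against 72.97 to 77.81% in full serum. Counting error is therefore larger for the stripped-serum counts, and the cause of the low share was not tested. Both the counts and the FPKM values are given there. Tests ran on counts with edgeR's quasi-likelihood model, adjusted over all genes tested. A second test, limma on log2(FPKM + 1), is given beside it for part of the stripped-serum results. Its fold changes of low genes are understated by the added 1. Levels in different sera are set side by side without a test. In stripped serum, relative to full serum, the reads per FPKM of a gene rose with the level of an opposite-strand partner, from a median excess of 0.08 (log2) over 2900 genes with a weak partner to 1.28 over 101 genes with a partner at more than 16 times their level. The 8 members with enough reads for a value lay between −0.40 (INSR) and 0.71 (IGFBP2) on this scale, and IGFBP5 and INPP4B have none. Whether the counts of both sera were made with the same strand setting is not given. If they were not, reads and edgeR folds in stripped serum may hold transcripts of the other strand, and the FPKM, which come from another tool, are given beside them. All 10 luminal prostate markers had a median over the samples of at least 1 FPKM, with sums of 1036 to 3546 FPKM per sample. The summed basal, endothelial and leukocyte markers stayed at or below 0.768 FPKM, and the sum of the 4 stromal markers lay between 0.770 and 4.16. The summed neuroendocrine markers lay between 6.51 and 34.7. Of these, CHGA never exceeded 0.170, while ENO2 lay between 5.03 and 29.1 and SYP between 0.585 and 9.55. The part of these markers in the results was not tested. The replicate 1 library of MR49F with vehicle in full serum stood apart from replicates 2 and 3, with a chi-square per degree of freedom of 9.87 and 11.6 against a median of 1.53 over all 30 replicate pairs. Where a result rests on it, the value without it is given. The study calls its replicates biological and pooled wells for each of them. Whether the wells came from separately passaged cultures is not stated, so p-values measure the spread between these samples, part of which may be technical.

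KLK3, an androgen-induced gene that encodes prostate-specific antigen, shows what the treatments did to androgen-dependent transcription. In V16D its mean fell with enzalutamide from 509 ± 8.74 to 132 ± 2.35 FPKM (SD, n = 3 here and throughout). MR49F in full serum held 971 ± 24.3 with vehicle and 941 ± 4.36 with enzalutamide. In MR49F in stripped serum it was 283 ± 6.14 with vehicle, 800 ± 8.90 with enzalutamide, 1258 ± 61.0 with DHT and 7.01 ± 0.579 with JQ1. The order of vehicle, enzalutamide and DHT recurs below for several members.

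The members lay at very different levels. IGFBP3 ranged over the condition means from 8.80 to 466 FPKM, the widest ratio outside IGFBP5 and INPP4B at 52.9, followed by IGF1R at 7.10 and IRS2 at 6.71. IGFBP2, PIK3R1, INSR, IRS1 and PHLPP1 moved less. IGFBP5 never exceeded 1.01 FPKM, and INPP4B was near 0 in several stripped-serum conditions, so both are described by their reads there. For IGFBP3 no neighbouring conditions in the order of levels overlapped between replicates, and for IGF1R only the lowest pair did, which was V16D with enzalutamide and MR49F in stripped serum with vehicle.

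**Figure D1:**
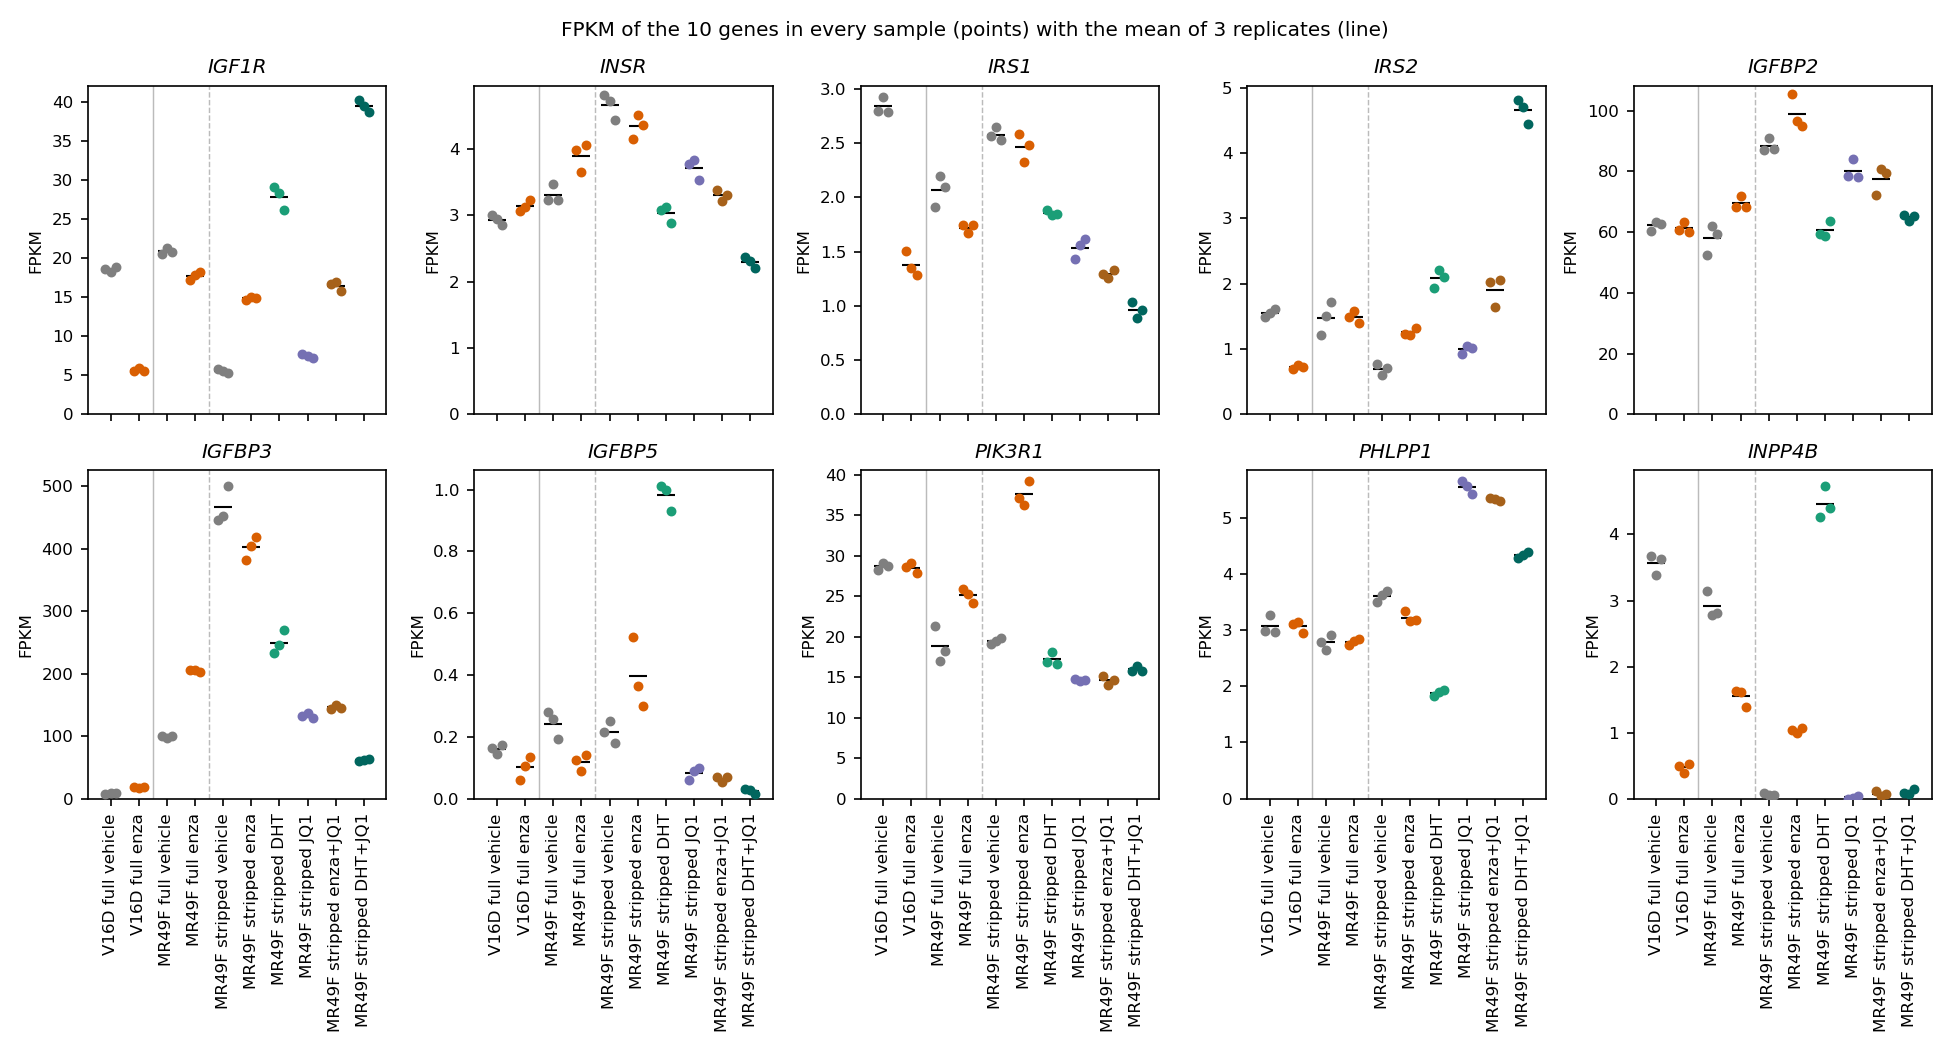
FPKM of the 10 members in each of the 10 conditions (each gene on its own linear axis from 0), with 1 point per replicate and a line at the mean of 3. IGF1R was lowest in V16D with enzalutamide (5.66 FPKM) and in MR49F in stripped serum with vehicle (5.56 FPKM), and highest with DHT and JQ1 (39.5 FPKM), while IGFBP3 was lowest in V16D with vehicle (8.80 FPKM).

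Enzalutamide was called for a similar number of members in both lines, and IGF1R, IRS1, IRS2 and INPP4B fell further in V16D. By edgeR, 6 of the 10 members were called in V16D, 1 higher and 5 lower, where 37.5% of all tested genes were called. MR49F in full serum had 7 of 10 called, 3 higher and 4 lower, against 8.48% of all genes. That number rests on single libraries: it was 8 without vehicle replicate 1, 4 without vehicle replicate 2 and 3 without any one of the enzalutamide replicates. The calls for IRS1, IGFBP5 and PIK3R1 were lost without any one of the enzalutamide replicates or vehicle replicate 2, and that for IGFBP2 without any one of the enzalutamide replicates. The median over the members was −0.39 in V16D against 0.00 over all genes, and −0.03 against 0.01 in MR49F. The difference between the lines in response, tested as an interaction, was called for 6 of 10 members (6.95% of all genes), each with a higher value in MR49F. With vehicle, MR49F and V16D differed in 7 of 10 members, 4 higher and 3 lower in MR49F, but 63.7% of all genes differed. That number was 4 without MR49F vehicle replicate 2 and 5 to 7 without any other library, the calls lost being those of INSR in 3 of 6 fits and of IGFBP5 and INPP4B in 4 each.

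In stripped serum, enzalutamide was called for 2 of the 8 members that passed the count filter (7.26% of all genes), both higher, and for 5 of 8 on the FPKM scale (38.7%). DHT was called for 8 of 10, 4 higher and 4 lower (37.5%), and for 9 of 9 by FPKM (72.1%). Between DHT and enzalutamide, 8 of 10 members differed by counts (19.4%) and 9 of 9 by FPKM (57.4%). Of these, IRS1 was lower with DHT by FPKM, while its value by counts had the other sign and did not pass. These shares of members stand against a background in which the FPKM test calls most genes for DHT and JQ1. The response to enzalutamide differed between the sera in MR49F for 6 of 9 members tested by limma on FPKM (34.1%). These comparisons share the vehicle samples. Each serum was its own experiment with its own vehicle and libraries, so serum and experiment cannot be told apart in the comparison of sera.

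**Figure D2:**
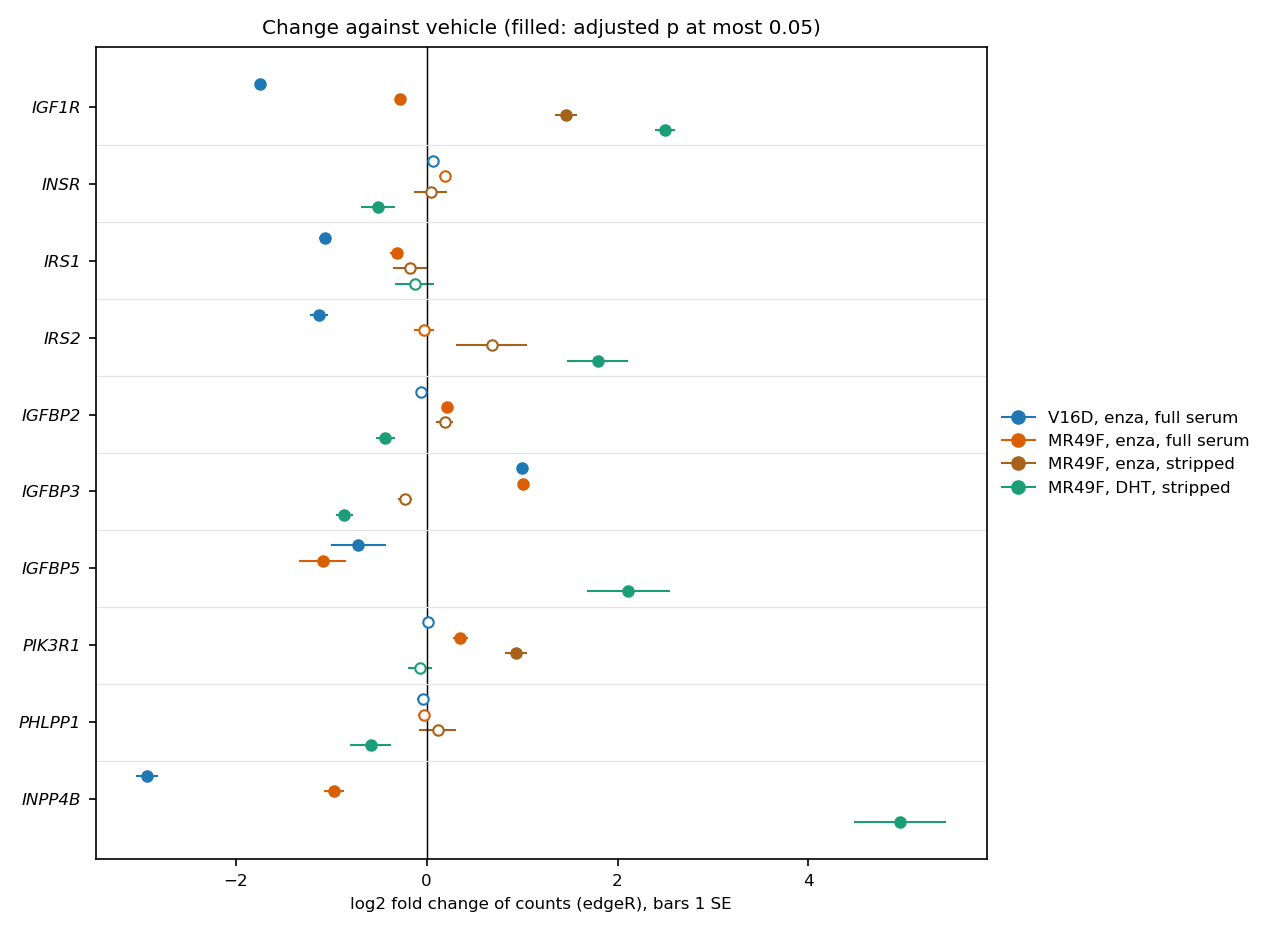
Fitted log2 fold changes with their standard errors for the members under enzalutamide in V16D, under enzalutamide in MR49F in full serum, and under enzalutamide and DHT in MR49F in stripped serum, by edgeR on counts. Filled points passed the test, and members under the count filter are not drawn. IGF1R fell by 1.75 in V16D and rose by 1.46 with enzalutamide and 2.50 with DHT in stripped serum.

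IGF1R, the receptor for IGF1 and IGF2, moved with KLK3 in the settings without JQ1. In V16D it measured 18.6, 18.2 and 18.8 FPKM with vehicle and 5.58, 5.88 and 5.53 with enzalutamide. The groups lay far apart, a 3.27-fold fall with a log2 fold change of −1.75 ± 0.03 (SE; edgeR adjusted p = 1.48e-286). In MR49F in full serum it measured 20.5, 21.3 and 20.8 with vehicle and 17.2, 17.8 and 18.2 with enzalutamide, still without overlap, but the fall was −0.28 ± 0.04 (edgeR adjusted p = 0.00252), and −0.27 without vehicle replicate 1. The fall was smaller in MR49F than in V16D by 1.46 (edgeR interaction, adjusted p = 5.92e-14).

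In MR49F in stripped serum IGF1R turned the other way. It measured 5.77, 5.59 and 5.31 FPKM with vehicle, 3.76-fold below the full-serum vehicle level. With enzalutamide it measured 14.6, 15 and 14.9, and with DHT 29.0, 28.3 and 26.1. All enzalutamide samples were above vehicle and below DHT. The rise was 1.46 ± 0.11 with enzalutamide (edgeR adjusted p = 5.88e-08) and 2.50 ± 0.11 with DHT (edgeR adjusted p = 1.97e-15), that is 2.67-fold and 5.01-fold by mean FPKM. DHT exceeded enzalutamide by 1.03 (edgeR adjusted p = 1.32e-07). The enzalutamide effect in stripped serum exceeded that in full serum by 1.5 (limma on FPKM, adjusted p = 1.35e-08).

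INSR, the insulin receptor, was lower where DHT raised IGF1R, on a smaller scale. In V16D it measured 3.0, 2.94 and 2.85 FPKM with vehicle and 3.07, 3.13 and 3.22 with enzalutamide, a log2 fold change of 0.07 that did not pass the test (edgeR adjusted p = 0.332). MR49F in full serum had values of 3.23, 3.47 and 3.23 against 3.98, 3.65 and 4.06 (0.19, edgeR adjusted p = 0.0827), and only without vehicle replicate 1 did that pass (edgeR adjusted p = 0.0132). In stripped serum INSR was among its highest with vehicle at 4.82, 4.71 and 4.44, overlapped with that under enzalutamide at 4.14, 4.50 and 4.36, and was lower in every DHT sample at 3.07, 3.12 and 2.89. The fall with DHT was −0.51 ± 0.18 (edgeR adjusted p = 0.0292, limma on FPKM 3.79e-05). It lost the edgeR call without replicate 1 or 3 of DHT or replicate 1 or 2 of vehicle.

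The adaptors divided between the treatments. IRS1 fell in V16D from 2.80, 2.92 and 2.79 FPKM to 1.51, 1.34 and 1.28 with enzalutamide, with every treated sample below every vehicle sample (−1.06 ± 0.06, edgeR adjusted p = 3.06e-52). The MR49F values in full serum went from 1.91, 2.20 and 2.09 to 1.74, 1.67 and 1.74, a fall of −0.31 ± 0.07 (edgeR adjusted p = 0.0172) that was smaller than in V16D by 0.74 (edgeR interaction, adjusted p = 1.3e-05). In stripped serum it was not higher with androgen. The vehicle samples were at 2.56, 2.64 and 2.53, enzalutamide at 2.58, 2.33 and 2.48, and DHT at 1.88, 1.84 and 1.85. The DHT difference passed by limma on FPKM (−0.32, adjusted p = 0.000374) and not by edgeR on counts (−0.13, adjusted p = 0.666).

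IRS2 fell in V16D as well, from 1.48, 1.55 and 1.62 FPKM to 0.692, 0.756 and 0.727, without overlap (−1.13 ± 0.09, edgeR adjusted p = 1.18e-28). The MR49F samples in full serum overlapped, at 1.21, 1.51 and 1.72 with vehicle and 1.48, 1.59 and 1.40 with enzalutamide (−0.03, edgeR adjusted p = 0.898), and the lines differed by 1.09 (edgeR interaction, adjusted p = 1.43e-05). In stripped serum IRS2 followed the order seen for IGF1R, at 0.766, 0.60 and 0.714 with vehicle, 1.24, 1.21 and 1.32 with enzalutamide and 1.94, 2.21 and 2.11 with DHT. The 3 groups did not overlap. DHT raised it by 1.79 ± 0.32 (edgeR adjusted p = 7.34e-05). For enzalutamide the counts, which were 12, 4 and 12 reads with vehicle, gave 0.68 ± 0.37 (edgeR adjusted p = 0.332), while limma on FPKM gave 0.41 (adjusted p = 0.00212).

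Of the binding proteins, IGFBP3, which carries most IGF in serum, differed most between the lines. With vehicle in full serum V16D held 8.16, 9.16 and 9.09 FPKM and MR49F 101, 97.0 and 99.7, an 11.3-fold difference (3.5 ± 0.06, edgeR adjusted p = 1.29e-12). Enzalutamide raised it to 18.1, 17.5 and 18.4 in V16D and to 206, 207 and 203 in MR49F. All treated samples were above their vehicle samples, and the fitted rise was 1.00 ± 0.05 in V16D (edgeR adjusted p = 9.28e-72) and 1.01 ± 0.05 in MR49F (edgeR adjusted p = 1.11e-06). The interaction for IGFBP3 was −0.00 (edgeR adjusted p = 0.99), so that the member with the largest difference between lines at baseline had no detected difference between lines in response.

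In stripped serum IGFBP3 was higher still, at 446, 452 and 501 FPKM with vehicle, and androgen lowered it. It measured 382, 405 and 419 with enzalutamide and 232, 246 and 270 with DHT. DHT lowered it by −0.86 ± 0.09 (edgeR adjusted p = 2.88e-08). Enzalutamide lowered it by −0.21 on the FPKM scale (limma adjusted p = 0.0214), and by counts the difference was −0.23 and did not pass (edgeR adjusted p = 0.0647). The enzalutamide effect thus went up in full serum and not in stripped serum, a difference of −1.25 (limma on FPKM, adjusted p = 4.69e-07).

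IGFBP2, which prostate tumour cells secrete, moved within a narrow range. In V16D it measured 60.5, 63.4 and 62.8 FPKM with vehicle and 60.7, 63.2 and 59.9 with enzalutamide. MR49F in full serum held 52.5, 62.1 and 59.2 with vehicle and 68.1, 71.7 and 68.4 with enzalutamide (0.22 ± 0.05, edgeR adjusted p = 0.0333), and 0.17 without vehicle replicate 1, its lowest sample. In stripped serum it was 87.1, 90.8 and 87.2 with vehicle, 105, 96.6 and 94.8 with enzalutamide and 59.4, 58.5 and 63.6 with DHT. DHT samples were below all others, with a log2 fold change of −0.43 ± 0.10 (edgeR adjusted p = 0.000858).

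IGFBP5 was at the edge of detection. In V16D it measured 0.164, 0.144 and 0.172 FPKM with vehicle and 0.0613, 0.106 and 0.135 with enzalutamide (−0.72 ± 0.29, edgeR adjusted p = 0.0364). Full-serum MR49F samples gave 0.279, 0.257 and 0.193 with vehicle and 0.127, 0.0883 and 0.142 with enzalutamide (−1.09 ± 0.25, edgeR adjusted p = 0.0235). In stripped serum it had 3, 4 and 3 reads with vehicle, 10, 6 and 6 with enzalutamide and 14, 16 and 11 with DHT. DHT samples had the most reads, with a ratio to vehicle, relative to reads on genes, of 4.07 (95% counting interval 2.01 to 9.12), and the ratio for enzalutamide was 2.17 (0.988 to 5.14). Such intervals cover counting error only. The V16D call was lost without replicate 1 or 2 of enzalutamide or replicate 1 or 3 of vehicle.

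PIK3R1 makes the regulatory subunits of PI3K. Summed over transcripts it measured 28.3, 29.2 and 28.7 FPKM in V16D with vehicle and 28.6, 29.1 and 27.9 with enzalutamide, which overlapped. MR49F in full serum held 21.4, 16.9 and 18.3 with vehicle and 25.9, 25.2 and 24.2 with enzalutamide, without overlap (0.35 ± 0.08, edgeR adjusted p = 0.0233), and 0.47 without vehicle replicate 1, its highest vehicle sample. In stripped serum vehicle gave 19.1, 19.5 and 19.9, enzalutamide 37.2, 36.3 and 39.3, and DHT 16.8, 18.2 and 16.7. Only the enzalutamide samples stood above vehicle, by 0.94 ± 0.11 (edgeR adjusted p = 1.98e-05). DHT was below enzalutamide, with a log2 fold change of −1.02 (edgeR adjusted p = 3.11e-07). The rise with enzalutamide was larger in stripped than in full serum by 0.51 (limma on FPKM, adjusted p = 0.0023).

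The total hid changes between the starts whose promoters are printed above. The p85α transcript encodes the full-length subunit of 724 residues, and the p55α (454 residues) and p50α (424 residues) transcripts start further downstream and lack the amino-terminal domains of p85α. In V16D p85α went from 7.49, 8.66 and 7.78 FPKM to 13.1, 12.3 and 13.7 with enzalutamide (0.64 ± 0.07, limma adjusted p = 0.00449), while p55α went from 15.6, 15.4 and 14.5 to 11, 11.5 and 10.9 (−0.41 ± 0.04, limma adjusted p = 0.00359). These moved apart while the total did not pass the test (0.02, edgeR adjusted p = 0.7). The share of p55α and p50α together in PIK3R1 FPKM was 69.5 ± 1.19% with vehicle and 51.6 ± 1.93% with enzalutamide, with no overlap. Over all transcripts 9.90% were called in this comparison. A fit on transcripts depends on how Cufflinks divided reads between them.

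In MR49F in stripped serum enzalutamide worked on the short forms. p55α went from 5.76, 8.02 and 5.96 FPKM to 20.4, 19.1 and 20.6 (1.49 ± 0.12, limma adjusted p = 0.00143), and p50α from 6.10, 4.93 and 6.31 to 10.1, 10.1 and 11.5 (0.78 ± 0.10, limma adjusted p = 0.00638). p85α did not rise, at 6.59, 6.52 and 6.51 with vehicle and 5.75, 5.99 and 5.75 with enzalutamide (−0.14, limma adjusted p = 0.101). The short share rose from 63.5 ± 2.63% to 81.5 ± 0.980%, and 14.7% of all transcripts were called. With DHT the share was 66.9 ± 3.17% and overlapped vehicle. Under DHT, where 48.6% of transcripts were called, p85α fell to 5.16, 5.35 and 4.40 (−0.34, limma adjusted p = 0.0119), and p50α fell to 3.64, 4.24 and 4.29 (−0.42, limma adjusted p = 0.0188), a call lost without DHT replicate 1 or vehicle replicate 1 or 3. For MR49F in full serum no form passed the test, and 0.416% of transcripts did.

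**Figure D3:**
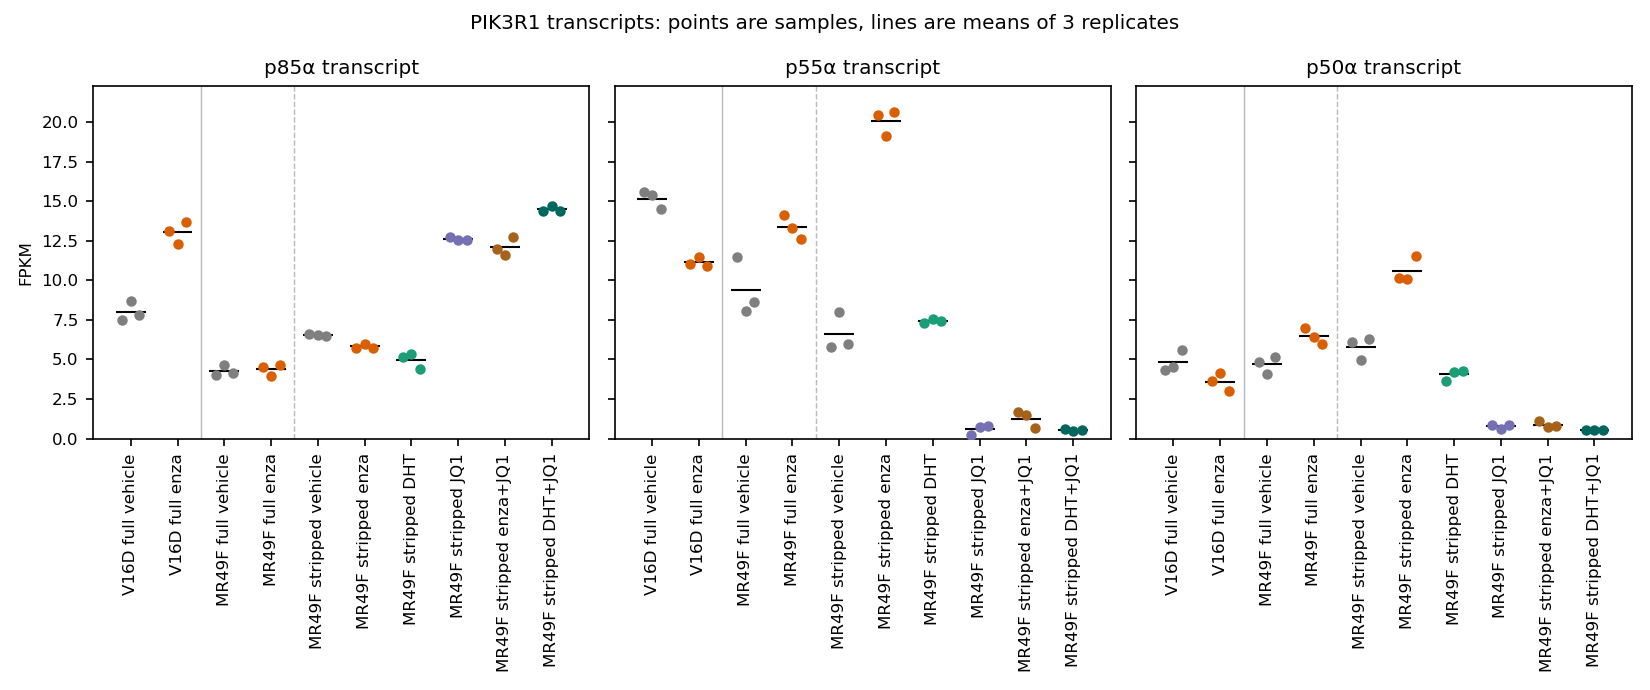
FPKM of the p85α, p55α and p50α transcripts of PIK3R1 in each condition, with 1 point per replicate and a line at the mean of 3. With JQ1 in stripped serum p55α and p50α were each below 2 FPKM in all 9 samples, and p85α was between 11.6 and 14.7 FPKM.

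INPP4B, the lipid phosphatase, had the largest fall in V16D. It measured 3.67, 3.39 and 3.62 FPKM with vehicle and 0.494, 0.392 and 0.529 with enzalutamide, a 7.55-fold difference with no overlap (−2.93 ± 0.11, edgeR adjusted p = 5.99e-107). In MR49F in full serum it measured 3.15, 2.78 and 2.82 with vehicle and 1.64, 1.61 and 1.39 with enzalutamide (−0.97 ± 0.10, edgeR adjusted p = 0.000213). The fall was smaller in MR49F by 1.95 (edgeR interaction, adjusted p = 4.61e-08). In stripped serum INPP4B had 1, 2 and 0 reads with vehicle, 6, 12 and 8 with enzalutamide and 36, 23 and 38 with DHT, and no groups overlapped. By edgeR the DHT difference passed (adjusted p = 8.42e-09), and INPP4B was below the count filter in the enzalutamide test. Relative to reads on genes, the ratio to vehicle was 8.57 (95% counting interval 2.63 to 44.2) for enzalutamide and 32.1 (10.7 to 158) for DHT, and DHT was 3.75 (2.41 to 6.02) times enzalutamide. In FPKM the stripped-serum levels were 0.0903, 0.0587 and 0.0548 with vehicle, 1.05, 0.995 and 1.07 with enzalutamide and 4.27, 4.74 and 4.40 with DHT.

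PHLPP1, the AKT phosphatase, passed no test of enzalutamide in full serum and fell with DHT in stripped serum. It measured 2.99, 3.27 and 2.97 FPKM in V16D with vehicle and 3.11, 3.14 and 2.96 with enzalutamide, and 2.79, 2.65 and 2.91 against 2.73, 2.80 and 2.84 in MR49F. Both pairs overlapped and neither passed the test (edgeR adjusted p = 0.678 and 0.82). In stripped serum vehicle gave 3.5, 3.63 and 3.70, enzalutamide 3.33, 3.16 and 3.18, and DHT 1.83, 1.90 and 1.93. All DHT samples were the lowest, with −0.59 ± 0.21 by edgeR (adjusted p = 0.0313) and −0.68 by limma on FPKM (adjusted p = 4.17e-06). The edgeR call was lost without the same libraries as for INSR. PHLPP1 and INPP4B, both brakes on AKT signalling, thus went opposite ways under DHT. Over the 10 condition means, those with JQ1 included, their correlation was −0.84. With enzalutamide in full serum INPP4B fell in both lines, while PHLPP1 passed no test.

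JQ1 alone, against vehicle in stripped serum, was called for 4 of 8 members by edgeR, 3 higher and 1 lower (46.6% of all genes), and for 7 of 7 by FPKM (75.1%). Added to enzalutamide it was called for 7 of 8, 3 higher and 4 lower (45.1%), and for 8 of 8 by FPKM (75.7%). The edgeR number was 4 without replicate 1 of enzalutamide with JQ1 and 5 or 6 without any other library, and IRS1 lost its call in 5 of these 6 fits. Added to DHT it was called for 7 of 10, 3 higher and 4 lower (54.7%), and for 7 of 9 by FPKM (78.8%). JQ1 moved so many genes that a called member is no rare event, and the direction and size for single members carry the description. The JQ1 comparisons share samples with those of enzalutamide and DHT.

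**Figure D4:**
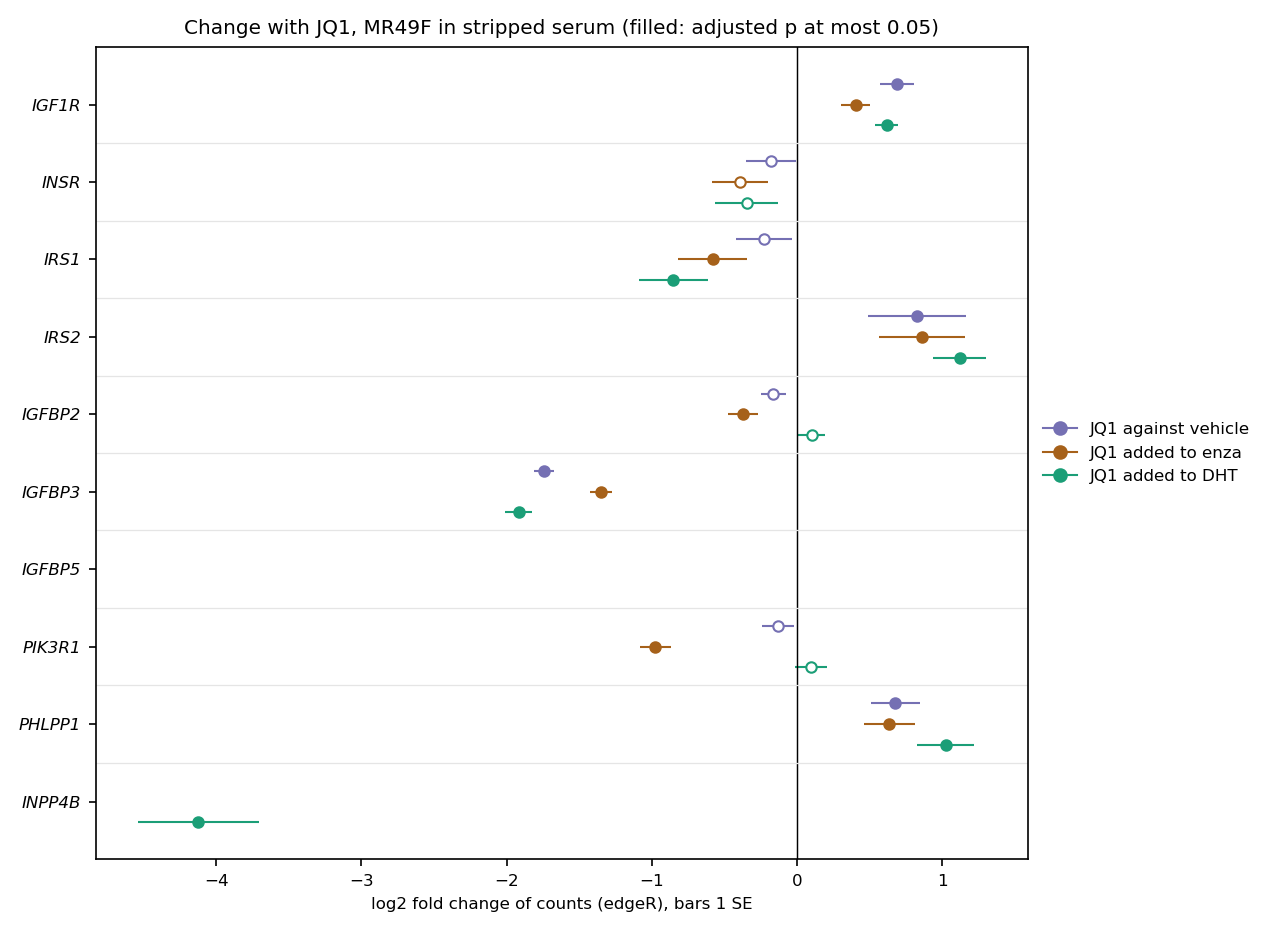
Fitted log2 fold changes with standard errors for JQ1 against vehicle, JQ1 added to enzalutamide and JQ1 added to DHT in MR49F in stripped serum, by edgeR on counts. Filled points passed the test, and IGFBP5 and INPP4B are drawn only where they were tested on reads above 0. IGF1R and PHLPP1 were above 0 and IGFBP3 below 0 in all 3 comparisons.

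IGF1R rose when JQ1 was added, while KLK3 fell. Its values were 7.76, 7.41 and 7.24 FPKM with JQ1 alone, 16.7, 16.9 and 15.7 with enzalutamide and JQ1, and 40.3, 39.4 and 38.7 with DHT and JQ1, each group above its match without JQ1. The rises were 0.69 ± 0.12 (edgeR adjusted p = 4.49e-06), 0.40 (edgeR adjusted p = 0.00224) and 0.62 (edgeR adjusted p = 2.96e-08). They were smaller in mean FPKM, at 1.34-fold, 1.11-fold and 1.42-fold. Limma on the FPKM of its single listed transcript gave 0.37, 0.14 and 0.49 (adjusted p = 0.00189, 0.0347 and 0.000318). KLK3 was at 161 ± 2.70 FPKM with DHT and JQ1 against 1258 ± 61.0 with DHT. The DHT effect on IGF1R was 2.44 in the presence of JQ1 (edgeR adjusted p = 5.14e-35), and the interaction of DHT and JQ1 was −0.07 (edgeR adjusted p = 0.804).

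IRS2 rose with JQ1 too. It measured 0.930, 1.05 and 1.02 FPKM with JQ1, 2.02, 1.65 and 2.06 with enzalutamide and JQ1, and 4.81, 4.70 and 4.44 with DHT and JQ1, its highest level in any condition. Added to DHT, JQ1 raised it by 1.12 (edgeR adjusted p = 2.59e-06), added to enzalutamide by 0.86 (edgeR adjusted p = 0.0195) and alone by 0.83 (edgeR adjusted p = 0.0417). For JQ1 alone IRS2 was under the FPKM filter and has no limma value. The call for JQ1 alone was lost without any JQ1 replicate or vehicle replicate 1 or 2, and that for the addition to enzalutamide without enzalutamide replicate 2 or replicate 1 or 3 of the pair of drugs. IRS1 was lower, at 1.43, 1.56 and 1.61 with JQ1 and 1.03, 0.885 and 0.964 with DHT and JQ1. With DHT the fall was −0.85 (edgeR adjusted p = 0.00266). Alone it was −0.50 by limma on FPKM (adjusted p = 4.29e-05) and −0.23 by edgeR (adjusted p = 0.351).

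INSR measured 3.76, 3.84 and 3.54 FPKM with JQ1 and 2.38, 2.31 and 2.21 with DHT and JQ1, all below their matches without JQ1. It passed by limma on FPKM (−0.26, adjusted p = 0.00133, and −0.29, adjusted p = 0.000839) and by edgeR in neither case (adjusted p = 0.411 and 0.178). PHLPP1 rose in each setting, to 5.66, 5.57 and 5.43 with JQ1, 5.35, 5.34 and 5.31 with enzalutamide and JQ1, and 4.28, 4.35 and 4.40 with DHT and JQ1, with no overlap. The rises were 0.67 (edgeR adjusted p = 0.000913), 0.64 (edgeR adjusted p = 0.0046) and 1.02 (edgeR adjusted p = 4.45e-05).

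IGFBP3 fell most among the members that stayed well above detection with JQ1. It measured 132, 137 and 130 FPKM with JQ1, 144, 150 and 145 with enzalutamide and JQ1, and 59.6, 61.9 and 63.0 with DHT and JQ1. These are 3.51-fold, 2.75-fold and 4.06-fold below the matches without JQ1, with log2 fold changes of −1.74 ± 0.07 (edgeR adjusted p = 7.46e-26), −1.35 (edgeR adjusted p = 6.89e-14) and −1.92 (edgeR adjusted p = 3.94e-19). IGFBP2 stayed near its level, at 78.5, 84.0 and 78.1 with JQ1, 72.2, 80.9 and 79.6 with enzalutamide and JQ1 and 65.5, 63.7 and 65.4 with DHT and JQ1. Only the addition to enzalutamide passed by edgeR (−0.37, adjusted p = 0.00463), and JQ1 alone passed by limma on FPKM (−0.14, adjusted p = 0.0111). IGFBP5 had 2, 1 and 3 reads with JQ1 and 0 in all samples with enzalutamide and JQ1 or DHT and JQ1. Against a floor of 3 reads over the group, that is at least 15.5-fold lower than the 41 reads with DHT, and at least 6.09-fold lower than the 22 reads with enzalutamide.

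INPP4B, which DHT raised most, was lost again with JQ1. It had 1, 1 and 4 reads with DHT and JQ1 against 36, 23 and 38 with DHT, 18.3-fold lower relative to reads on genes (95% counting interval 8.13 to 51.2). With enzalutamide and JQ1 it had 1, 0 and 2 reads, 7.20-fold lower than with enzalutamide (2.21 to 37.2). JQ1 alone left 0 reads against 3 with vehicle, for which no ratio is given. IGF1R and INPP4B, both raised by DHT, thus parted under JQ1. IGF1R was above and INPP4B below its DHT level in every sample.

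PIK3R1 showed its widest shift under JQ1. The total was 14.8, 14.6 and 14.6 FPKM with JQ1, 15.2, 14.1 and 14.6 with enzalutamide and JQ1, and 15.8, 16.4 and 15.7 with DHT and JQ1, so the level was similar in all and below the 37.2, 36.3 and 39.3 of enzalutamide alone. Added to enzalutamide JQ1 changed the total by −0.98 (edgeR adjusted p = 4.38e-08), and the interaction of enzalutamide and JQ1 was −0.84 (edgeR adjusted p = 0.00289). Within the total the forms exchanged places. With JQ1 p85α was at 12.7, 12.6 and 12.6, p55α at 0.232, 0.758 and 0.794 and p50α at 0.880, 0.577 and 0.866. By limma p85α rose by 0.85 ± 0.04 (adjusted p = 2.68e-05), p55α changed by −2.26 ± 0.19 (adjusted p = 0.000282) and p50α by −1.93 ± 0.12 (adjusted p = 9.16e-05). In this comparison 52.4% of all transcripts were called.

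The same directions held in the other settings. With enzalutamide and JQ1 p85α was at 11.9, 11.6 and 12.7 FPKM and p55α at 1.68, 1.46 and 0.652, against 20.4, 19.1 and 20.6 without JQ1 (−3.25, limma adjusted p = 6.26e-05; 53.2% of transcripts called). With DHT and JQ1 p85α was at 14.4, 14.7 and 14.4 (1.38, limma adjusted p = 3.09e-05) and p55α at 0.630, 0.458 and 0.544 (−2.45, limma adjusted p = 6.14e-06; 58.4% called). The short share was 9.34 ± 1.91% with JQ1, 14.6 ± 4.22% with enzalutamide and JQ1 and 6.70 ± 0.611% with DHT and JQ1. The differences from the matches without JQ1 were −54.2, −66.9 and −60.2 percentage points, each with no overlap (two-sided exact permutation p = 0.1, the smallest that 3 against 3 samples can give).

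The effect of the ligands in the presence of JQ1 was tested after the values had been seen. DHT against vehicle, both with JQ1, was called for 5 of 8 members by edgeR (22.1% of all genes) and 8 of 8 by FPKM (53.3%). IGF1R and IRS2 rose, by 2.44 and 2.1 (edgeR adjusted p = 5.14e-35 and 1.16e-13), and IGFBP3 fell by 1.02 (edgeR adjusted p = 3.76e-17). The INSR (−0.66) and IRS1 (−0.74) falls passed with edgeR adjusted p = 0.00823 and 0.0104, and only 3 members stayed called without DHT and JQ1 replicate 2. Enzalutamide against vehicle, both with JQ1, was called for 1 of 8 by edgeR (4.5%), which was IGF1R (1.18, adjusted p = 7.74e-28), and for 3 of 8 by FPKM (15.9%). PIK3R1, which enzalutamide raised by 0.94 without JQ1, was at 0.09 here (edgeR adjusted p = 0.762). The interaction of DHT and JQ1 was called for 1 of 10 by edgeR (12.3%) and 5 of 9 by FPKM (48.0%), and that of enzalutamide and JQ1 for 2 of 8 by edgeR (0.895%) and 3 of 8 by FPKM (19.2%). The edgeR calls were IGFBP5 with DHT, which rests on samples with 0 reads, and PIK3R1 and IGFBP3 with enzalutamide.

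Beyond the members, 69 further genes of the pathway were followed, of which 51 to 57 passed the count filter in each comparison. In V16D 19 of 56 rose and 11 fell with enzalutamide, where 37.5% of all genes were called. FKBP5, an androgen-induced gene whose protein holds PHLPP at AKT, had a log2 fold change of −2.09, and SOCS2, a suppressor of growth hormone signalling, −2.34, the largest falls. For MR49F in full serum 3 of 56 rose and 6 fell (8.48% of all genes), with FKBP5 at −1.24 and SOCS2 at −1.69. In stripped serum enzalutamide was called for 3 of 54 higher and 4 lower by counts (7.26% of all genes) and for 9 of 53 higher and 20 lower by limma on FPKM (38.7%), FKBP5 being highest by counts at 2.57 (edgeR adjusted p = 7.76e-11). In that serum DHT was called for 11 of 53 higher and 17 lower by counts (37.5%) and for 18 of 54 higher and 28 lower by FPKM (72.1%). FKBP5 (5.70) and SOCS2 (4.12) rose most, and GRB10, an adaptor that dampens IGF1R and INSR signals, fell most at −2.14 (edgeR adjusted p = 3.93e-16).

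By role, DHT was called lower for 6 of the 9 PI3K subunit genes tested and higher for none by counts, with a median of −0.78 against the list's −0.14. By limma on FPKM 7 were lower and 1 higher. PIK3CA, the alpha catalytic subunit, was at −1.54 (edgeR adjusted p = 0.000292). By limma on FPKM it did not reach a 2-fold change with a call. DHT was called for 37.5% of all genes by counts, where 1988 of 11004 were lower. By FPKM it was called for 72.1%, where 5265 of 12180 were lower. Of the 8 phosphatase genes 3 were lower by counts and 7 by FPKM. None was higher on either scale, so calls in either direction were no more frequent by counts than over all genes. Of the 20 AKT and mTOR genes 6 were higher and 2 lower by counts, in both directions together near the share of all genes. By FPKM 11 were higher and 6 lower. The translation repressor EIF4EBP1 was at 1.44 by counts. JQ1 alone gave 20 of 53 higher and 12 lower by counts (46.6% of all genes), and 23 and 23 by FPKM (75.1%). DDIT4, an mTOR inhibitor, rose by 1.32, TRIB3, which binds AKT, changed by −1.59, and PIK3AP1, an adaptor to PI3K, by −2.78. Added to enzalutamide JQ1 gave 19 of 52 higher and 11 lower by counts (45.1%), and 23 and 20 of 55 by FPKM (75.7%). Added to DHT it gave 23 of 53 higher and 14 lower by counts (54.7%), and 27 and 19 of 55 by FPKM (78.8%), with FOXO3, a transcription factor that AKT keeps out of the nucleus, at 2.12. With vehicle, 26 of the 56 tested genes of the list were higher and 16 lower in MR49F than in V16D, where 63.7% of all genes differed.

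The genes whose mean levels over the 10 conditions were most like the members', by Pearson correlation of log2(FPKM + 1) among 11260 candidates, were SLC45A3, an androgen-induced gene, and MBOAT2 for IGF1R (0.97 each) and PER1 and MBOAT2 for IRS2 (0.97 and 0.96). For INPP4B they were ST6GALNAC1 and LCP1 (0.95 each), for IGFBP3 NACA and BAD (0.99 and 0.98), for PHLPP1 PLS1 and SIRT3 (0.99 and 0.98), for INSR ERO1LB and GYG2 (0.97 each) and for PIK3R1 RASEF and THUMPD2 (0.90 each). IRS1 was closest to ALG12 (0.92), IGFBP2 to GPR176 (0.97), and IGFBP5 was too low to be compared. Candidates with a correlation of at least 0.9 numbered 365 for PHLPP1, 195 for IGFBP3 and 1 each for IRS1 and PIK3R1. For the other members compared they numbered 18 to 55. Among the members, IGF1R and IRS2 were the most alike (0.90) and INSR and IRS2 ran opposite (−0.75). The points share sera, lines and library depth, and these values are descriptions without a test.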

How the data were processed

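RNA was read as single-end 50-base stranded poly(A) libraries. Per the labels and the study's methods, the authors aligned reads to hg19 with TopHat2 2.0.9, counted reads per gene with HTSeq and ran Cufflinks 2.1.1; the deposited values are raw counts per gene and FPKM for each RefSeq transcript. Which strand HTSeq was told to count is not given in the sources used here. The groups were taken from the sample labels. The members and all gene lists were chosen with earlier results of these data known.

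Counts were filtered (filterByExpr, minimum count 10), scaled by TMM and tested pair by pair in edgeR 4.0.16 (R 4.3.3), with Benjamini-Hochberg adjustment over all genes at 0.05. FPKM were summed over the transcripts of a symbol, kept at 1 or more in at least 3 samples and tested as log2(FPKM + 1) in limma 3.58.1, as were the transcripts. The comparison of sera used limma because depth on genes differed. The gene and transcript fits were tested on simulated data for some of the comparisons. Alternatives were DESeq2 1.42.0, DESeq2 size factors, no filter, FPKM with 0.1 added, leaving out each library and a replicate block. Of 15 comparisons, 4 were added after the values were seen, as were the transcript tests. All members were named. Other pathway genes were named by a 2-fold change with a call, and those given in the text are examples. The main fits did not pair samples by replicate number. Deviations of same-numbered samples in stripped serum correlated between −0.318 and 0.315, with a mean of 0.031 against −0.015 for different numbers. Such a range cannot show that pairing is absent, and the fits with a replicate block are given below. No replicate pair differed by less than sampling noise (chi-square per degree of freedom at least 1.13). Protein sequences were not used here. Some items of the study are not reported here.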

Additional observations from a re-analysis of the deposited data

Results flagged for a closer look

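The response to enzalutamide differed between the lines in full serum for 6 members, each higher in MR49F than in V16D by the edgeR interaction. The differences in log2 fold change were 1.46 for IGF1R, 0.74 for IRS1, 1.09 for IRS2, 0.26 for IGFBP2, 0.33 for PIK3R1 and 1.95 for INPP4B. For PIK3R1 the call was lost in 9 of the 12 fits that left out 1 library. Without vehicle replicate 1 of MR49F it was 0.45 and passed.

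The response of MR49F to enzalutamide differed between the sera by limma on FPKM, and serum cannot be told apart from experiment here. The stripped-serum response exceeded the full-serum response by 1.5 for IGF1R, 0.41 for IRS2, 0.51 for PIK3R1 and 1.55 for INPP4B, and was below it for INSR (−0.27) and IGFBP3 (−1.25). On counts, INSR (−0.11, edgeR adjusted p = 0.769) and IRS2 (0.76, edgeR adjusted p = 0.243) did not pass.

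JQ1 changed the effect of DHT on IGFBP5, with a fitted interaction of −6.05 that rests on samples with 0 reads and is no bound. JQ1 also changed the effect of enzalutamide on PIK3R1 (−0.84) and IGFBP3 (0.40), and the IGFBP3 call was lost in 9 of 12 fits that left out 1 library.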

How the results depend on the processing

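Over 77 called member results and 953 alternative values, direction was kept in all 953, the call in 843, and 110 values in 23 results lost it. Counts in stripped serum rest on few reads. The number of genes called moved most between counts and FPKM. With 1 added to FPKM, and then 0.1, limma called 575 and 559 genes for enzalutamide in MR49F in full serum (edgeR 1181, members 3 and 3 against 7), 4709 and 4680 for enzalutamide in stripped serum (808, members 5 and 5 against 2), 8787 and 8771 for DHT (4122), 6904 and 6883 for DHT against enzalutamide (2122), 9170 and 9155 for JQ1 (5284, members 7 and 7 against 4), 9193 and 9171 for JQ1 added to enzalutamide (4902) and 9344 and 9320 for JQ1 added to DHT (5891). With 1 added, limma called 6238 for DHT with JQ1 (2400, members 8 against 5), 1865 for enzalutamide with JQ1 (482, members 3 against 1), 5983 for the DHT and JQ1 interaction (1428, members 5 against 1) and 2389 for that of enzalutamide and JQ1 (104, members 3 against 2). For the comparison of sera edgeR called 1613 against 4425 by limma. DESeq2 called 387 for enzalutamide in stripped serum and 1223 for DHT against enzalutamide. The cause was not tested.

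Genes called higher and lower were 488 and 320 by counts against 2356 and 2353 by FPKM for enzalutamide in stripped serum, 2134 and 1988 against 3522 and 5265 for DHT, 1125 and 997 against 2515 and 4389 for DHT against enzalutamide, 1334 and 1066 against 2012 and 4226 for DHT with JQ1, 338 and 144 against 750 and 1115 for enzalutamide with JQ1, and 57 and 47 against 940 and 1449 for the enzalutamide and JQ1 interaction.

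The values that changed sign passed no test by counts. At least IRS1 for DHT against enzalutamide was called on the FPKM scale, where all 9 members tested passed. With FPKM (1, then 0.1 added) these were PIK3R1 in V16D (−0.0089 and −0.0091), IRS2 (0.0092 and 0.019) and PHLPP1 (0.0034 and 0.0047) in MR49F in full serum, IGFBP3 in the interaction of line and enzalutamide (0.085 and 0.023), INSR (−0.084 and −0.10) and PHLPP1 (−0.13 and −0.16) for enzalutamide in stripped serum, IRS1 for DHT against enzalutamide (−0.28 and −0.39) and PIK3R1 for JQ1 added to DHT (−0.10 and −0.11). With 1 added these were also PIK3R1 (−0.0038) and PHLPP1 (−0.049) for enzalutamide with JQ1, IGF1R for the DHT and JQ1 interaction (0.12) and PHLPP1 for that of enzalutamide and JQ1 (0.076). In the interaction of line and enzalutamide IGFBP3 was 0.00083 without the filter, and PHLPP1 −0.0021 with DESeq2 size factors and −0.0032 by DESeq2. By edgeR the comparison of sera gave 0.011 for IGFBP2 and 0.19 for PHLPP1.

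Leaving out 1 library at a time gave 406 to 2533 genes for enzalutamide in MR49F in full serum, 2533 being without vehicle replicate 1, with 3 to 8 members. It gave 742 to 1579 genes for the interaction of line and enzalutamide, 414 (without vehicle replicate 1) to 910 for enzalutamide in stripped serum, and 61 to 293 for the interaction of enzalutamide and JQ1, with 1 to 2 members. Members called were 4 to 7 for MR49F against V16D, 4 to 6 for JQ1 added to enzalutamide, 3 to 5 for DHT with JQ1 and 1 to 2 for enzalutamide with JQ1. Ranges that crossed 0 were PHLPP1 (−0.069 to 0.013) in V16D, IRS2 (−0.13 to 0.059) and the p85α transcript (−0.0074 to 0.088) in MR49F in full serum, IGFBP3 (−0.034 to 0.043) and PHLPP1 (−0.049 to 0.033) in the interaction of line and enzalutamide, IRS2 (−0.15 to 0.033) between lines, INSR (−0.088 to 0.14) and PHLPP1 (−0.024 to 0.26) for enzalutamide in stripped serum, IRS1 (−0.31 to 0.029) and PIK3R1 (−0.17 to 0.062) for DHT, IRS1 (−0.14 to 0.20) for DHT against enzalutamide, IGFBP2 (−0.10 to 0.10) for enzalutamide with JQ1, IRS2 (−0.033 to 0.63) for the DHT and JQ1 interaction, and IRS2 (−0.29 to 0.38) and PHLPP1 (−0.18 to 0.11) for that of enzalutamide and JQ1.

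The replicate block called 1323 genes for enzalutamide in stripped serum and otherwise moved no count of genes by over 1.5 times. Of 137 member values under the block, 132 kept their call, IGFBP3 for enzalutamide in stripped serum gained it (−0.23, edgeR adjusted p = 0.00778), and INSR (−0.58, edgeR adjusted p = 0.0684) and PHLPP1 (−0.70, edgeR adjusted p = 0.0535) for DHT against enzalutamide, IRS2 for JQ1 (0.81, edgeR adjusted p = 0.0584) and INSR in the comparison of sera (−0.27, limma adjusted p = 0.0521) lost it. Whether same-numbered samples were handled together is not known here.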
